A study of Mus musculus with 56 samples.

Results

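The SR and hnRNP splicing factors described here are the transcripts whose symbols begin with Srsf or Hnrnp, together with Tra2a, Tra2b and the kinase genes Clk1, Clk2, Clk3 and Clk4. The rule found 37 genes, all protein coding, among the 17564 genes of the table, and all 37 passed the filter on low values (a deposited value of at least 1 in 80% of the 56 samples). They are 11 Srsf genes, 20 Hnrnp genes, the 2 Tra2 genes and the 4 CLK genes. The samples are polyA RNA from the anterior hypothalamus of 56 female C57BL/6J mice aged 9 weeks, kept under 12 h of light and 12 h of dark and given food only in the light phase (daytime-restricted feeding, DRF, 28 mice) or only in the dark phase (nighttime-restricted feeding, NRF, 28 mice) for 7 days. Each regimen was sampled every 4 h at 7 zeitgeber times (ZT, hours after lights on) from ZT0 to ZT24, with 4 mice at each time, and no mouse was sampled more than once. All groups carry the same unmodified genotype and no group had free access to food.

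SR proteins bind exonic sequences through RNA recognition motifs and recruit the spliceosome through an arginine- and serine-rich domain, and they mostly promote inclusion of an exon. hnRNP proteins coat nascent transcripts and often oppose SR proteins at the same exon. The CLK kinases phosphorylate the arginine- and serine-rich domain, their activity is known to fall as temperature rises, and the SR proteins and Tra2 proteins regulate their own transcripts through exons that expose the message to decay. The values here are summed over all transcripts of a gene, so exon choice was not measured.

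Values are given as CPM (counts scaled to the normalised library size), obtained by undoing the length division and log compression of the deposited values, and differences are on the log2(CPM + 1) scale. Normalised library sizes ran from 29591266 to 34493344 reads, and the correlation of log2(CPM + 1) between mice of the same group ran from 0.988 to 0.999. A pair of libraries stood apart: in DRF at ZT16, replicates 3 and 4 had slopes of the log2 deviation on gene GC content of 0.19 and 0.29 per SD of GC content, and the other 54 libraries lay between -0.09 and 0.09. Results that rest on this group are given with and without these 2 libraries. Markers of the anterior hypothalamus were present at a summed 403 to 564 CPM over the NRF group means and 429 to 628 CPM over the DRF group means. Markers of the posterior hypothalamus were also present, from 129 to 1144 CPM in single DRF mice.

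In NRF mice, 24 of the 37 members were rhythmic (adjusted p under 0.05, JTK_CYCLE and Lomb-Scargle combined), against 27.5% of all 16245 transcripts tested. They were 8 of 11 Srsf genes, 13 of 20 Hnrnp genes, both Tra2 genes and 1 of 4 CLK genes. The fitted 24-h cosine peaked between ZT16 and ZT24 for 19 of the 24, within the dark phase and the feeding time of these mice (ZT12 to ZT24). It peaked between ZT4 and ZT12 for Srsf5, Hnrnpdl, Hnrnpa0 and Hnrnpa1, and at ZT15.2, also in the dark phase, for Srsf2. Over all transcripts called in NRF, 2649 of 4470 peaked between ZT16 and ZT24 and 1438 between ZT4 and ZT12. The ZT8 group was the lowest of the 7 for 14 of the 24 rhythmic members, and the ZT20 group was the highest for 11. The rhythms were shallow: the highest group mean exceeded the lowest by 1.06-fold to 1.63-fold over the 37 members, with a median of 1.15-fold.

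In DRF mice, 1 member of 37 was rhythmic by the same test, Hnrnpc, against 0.813% of all transcripts, and 5 members (13.5%) had an unadjusted p under 0.05, against 4.3% of all transcripts. Hnrnpc had an adjusted p of 0.045 with all mice, 0.052 without the 2 libraries at ZT16, and 0.168 to 1 when any 1 replicate number was left out. Without the 2 libraries at ZT16, Srsf3 (adjusted p = 0.00261, and 0.39 with all mice) was the 1 member called rhythmic in DRF, against 0.714% of all transcripts. The median 24-h amplitude (the height of the fitted cosine above its mean) was 0.079 log2 units over the members in NRF and 0.064 in DRF, beside 0.073 and 0.056 over all transcripts. The amplitude was smaller in DRF than in NRF for 23 of 37 members (62.2%) and for 61.9% of all 16087 transcripts with CPM values, a share near that of the background.

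**Figure D1:**
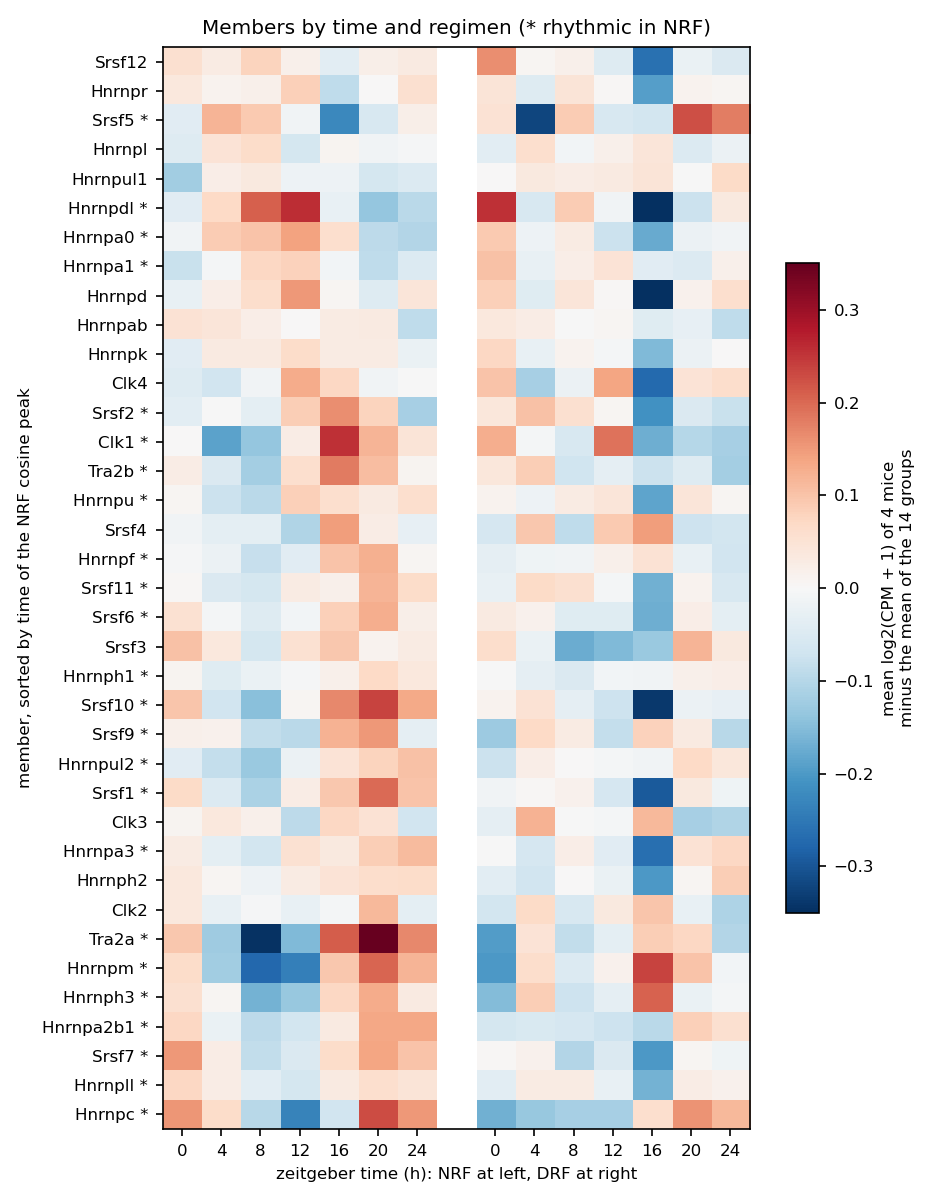
Each cell is the mean log2(CPM + 1) of 4 mice at 1 zeitgeber time, minus the mean of the 14 groups for that member. NRF is at the left, DRF at the right, members are sorted by the time of the NRF cosine peak, an asterisk marks the 24 members rhythmic in NRF, and colours saturate beyond the ends of the scale. The lower rows turn from blue at ZT8 to red at ZT20 in NRF, and the blue column in DRF at ZT16 is the group that holds the 2 libraries that stand apart.

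The 24-h rhythm itself differed between the regimens for 13 members (limma interaction test, adjusted p under 0.05), against 11.2% of all 16087 transcripts tested. These were Srsf2, Srsf5, Srsf10 and Srsf11, the hnRNP genes Hnrnpa0, Hnrnpa1, Hnrnpc, Hnrnpdl, Hnrnpf, Hnrnph3 and Hnrnpm, and Tra2a and Tra2b. Without the 2 libraries at ZT16, 12 of these 13 kept the call and no other member gained it. Tra2b lost it, with an adjusted p of 0.122.

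**Figure D2:**
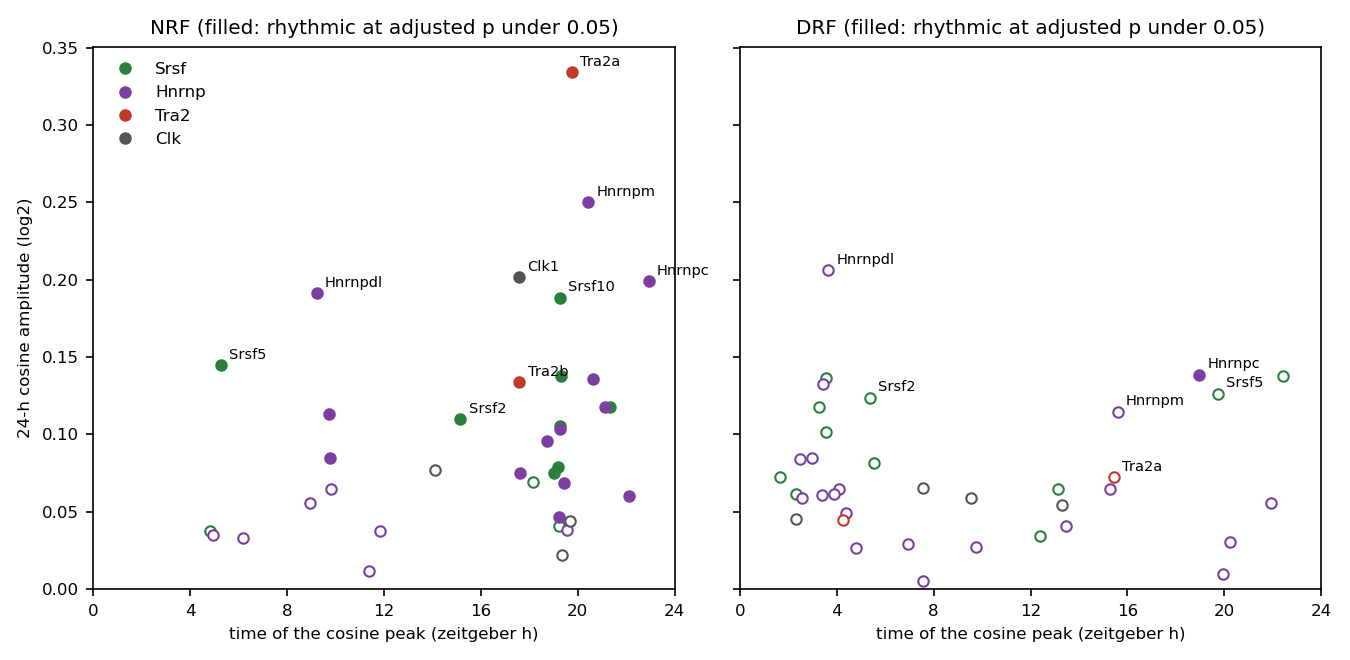
Amplitude of the fitted 24-h cosine (log2) against the time of its peak (zeitgeber h) for the 37 members, NRF at left and DRF at right; filled points passed the rhythm test. The 24 filled points in NRF lie mostly between ZT16 and ZT24 with Tra2a highest, and the only filled point in DRF is Hnrnpc.

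Tra2a and Tra2b encode the vertebrate counterparts of the fly sex determination factor transformer-2, SR-like proteins that bind GAA-rich exonic enhancers. Tra2a (NCBI Gene 101214, chromosome 6) had the largest NRF amplitude of the members, 0.33 log2 units with a peak at ZT19.7 (adjusted p = 9.57e-07). In NRF, the 4 mice at ZT8 measured 86.5, 78.8, 87.4 and 86.7 CPM and the 4 mice at ZT20 measured 137, 145, 135 and 137 CPM. Every ZT20 mouse lay above every ZT8 mouse, and the group means differed by 1.63-fold (84.8 ± 4.04 against 138 ± 4.47 CPM, SD, n = 4). In DRF, the 4 mice measured 96.1, 107, 105 and 99.3 CPM at ZT8 and 104, 125, 111 and 115 CPM at ZT20. The DRF amplitude was 0.07 log2 units with all mice, the 2 libraries at ZT16 that stand apart included. The difference between the rhythms was 0.31 log2 units (adjusted p = 0.000968), and 0.29 without the 2 libraries (limma adjusted p = 0.00027). The widest DRF spread was at ZT16, with 137, 147, 108 and 78.9 CPM, where replicates 3 and 4 were the lowest of the 4.

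Tra2b (NCBI Gene 20462, chromosome 16) had a smaller NRF amplitude of 0.13 log2 units and an earlier fitted peak at ZT17.6 (adjusted p = 6.31e-05). Its NRF mice measured 97.5, 90.3, 97.3 and 99.8 CPM at ZT8 and 116, 127, 112 and 120.4 CPM at ZT16, so these groups did not overlap. In DRF at ZT16 the first pair of replicates measured 122 and 124 CPM, and replicates 3 and 4 measured 86.8 and 73.6 CPM. The low mean of Tra2b in that group rested on those 2 libraries. Its rhythm difference was 0.18 log2 units with all mice and 0.11 without the 2 libraries, where it lost its call (limma adjusted p = 0.122).

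The promoter of Tra2a is shown because it is the member with the largest rhythm. Among the rhythmic members that had a window to search, it alone held a full cyclic AMP response element (CRE). The line gives the 250 bases before a RefSeq start of the gene (GRCm38.p6, 5′ to 3′ along the gene), with matches to TGACGTCA, TGACG and CCAAT on either strand in capitals. The RefSeq span of Tra2a reaches base 49264248, so most of this window, the full CRE included, lies inside the gene.
Tra2a chr6:49264053-49264302 (minus strand): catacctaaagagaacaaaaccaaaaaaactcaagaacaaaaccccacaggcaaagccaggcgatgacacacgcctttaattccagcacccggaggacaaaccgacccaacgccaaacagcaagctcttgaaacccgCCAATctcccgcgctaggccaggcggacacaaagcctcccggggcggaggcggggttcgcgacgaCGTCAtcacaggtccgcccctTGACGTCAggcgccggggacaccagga
The full CRE began 27 bases before the start used here, and a further TGACG core began 48 bases before it.

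Among the SR proteins, Srsf5 (NCBI Gene 20384, chromosome 12), which was first described as an insulin-induced gene in liver cells, had its trough at opposite clock times in the regimens. In NRF, its 4 mice measured 165, 183, 187 and 200.2 CPM at ZT16, and in DRF, the 4 mice at ZT4 measured 165, 174, 179 and 168 CPM. Each of these groups, the lowest of its regimen, was taken 4 h after food became available. The same clock times in the other regimen were higher, at 229, 245, 225 and 233 CPM in NRF at ZT4 and 200.2, 203, 212 and 206 CPM in DRF at ZT16. The ZT4 groups did not overlap, and the DRF minus NRF difference at ZT4 was -0.44 (SE 0.0664, adjusted p = 0.000114). At ZT16 the highest NRF mouse and the lowest DRF mouse both measured 200.2 CPM, the difference was 0.16 (SE 0.0664, adjusted p = 0.0745), and without the 2 libraries it was 0.14 (SE 0.082, adjusted p = 0.543). At ZT20, Srsf5 was higher in DRF, with 254, 263, 252 and 236 against 191, 207, 209 and 221 CPM and a difference of 0.28 (SE 0.0664, adjusted p = 0.0212).

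The 24-h cosine of Srsf5 peaked at ZT5.26 in NRF (amplitude 0.14 log2 units, adjusted p = 0.00195) and at ZT19.7 in DRF (amplitude 0.13, adjusted p = 1). The rhythms differed by 0.26 log2 units (adjusted p = 0.00635), and by 0.28 without the 2 libraries at ZT16. Without the ZT16 groups its NRF adjusted p was 0.506, and without replicate 1 or 4 of every group it was 0.218 or 0.0831. The rhythm difference also lost its call without replicate 1, at 0.22 log2 units.

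The promoter of Srsf5 is shown in the same way, since its lowest group lay at ZT16 in NRF and at ZT4 in DRF. A lowest group at different times in the regimens was not particular to Srsf5. Among the members rhythmic in NRF, the ZT8 group was the lowest for 14 in NRF and for 1 in DRF.
Srsf5 chr12:80945249-80945498 (plus strand): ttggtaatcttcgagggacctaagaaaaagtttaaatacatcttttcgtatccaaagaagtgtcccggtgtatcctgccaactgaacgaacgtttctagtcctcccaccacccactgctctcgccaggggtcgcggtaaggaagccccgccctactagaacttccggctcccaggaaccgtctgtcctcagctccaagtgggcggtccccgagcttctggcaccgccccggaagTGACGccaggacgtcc
It held 1 TGACG core, 16 bases before the start, and no other searched motif.

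Srsf2 (NCBI Gene 20382, chromosome 11), the speckle protein SC35, peaked at ZT15.2 in NRF (amplitude 0.11 log2 units, adjusted p = 0.000313). Its NRF mice measured 191, 204, 185 and 195 CPM at ZT16 and 158, 158, 167 and 156 CPM at ZT24, which did not overlap. In DRF it was highest at ZT4, with 186, 187, 188 and 183 CPM, and replicates 3 and 4 at ZT16 were the lowest, at 142 and 112 CPM. The rhythm difference was 0.22 log2 units (adjusted p = 0.000598), and 0.15 without the 2 libraries (adjusted p = 0.000463). Without the ZT16 groups the NRF rhythm lost its call (adjusted p = 0.11).

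Srsf10 (NCBI Gene 14105, chromosome 4), a factor that turns into a splicing repressor when it is dephosphorylated after heat shock, had the largest NRF amplitude of the Srsf genes, 0.19 log2 units with a peak at ZT19.3 (adjusted p = 6.11e-05). Its NRF mice measured 82.7, 75, 84.2 and 79 CPM at ZT8 and 101, 109, 105 and 104 CPM at ZT20, with no overlap. In DRF at ZT16 its mice measured 101, 105, 55.8 and 40.2 CPM, the widest spread in the gene, and replicates 3 and 4 lay below every other mouse of either regimen. The rhythm difference was 0.29 log2 units, and 0.17 without the 2 libraries (adjusted p = 0.036). It lost its call without replicate 3 or 4 of every group, at 0.26 and 0.21 log2 units, and without ZT24, at 0.29.

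Of the other Srsf genes, Srsf1, Srsf6, Srsf7, Srsf9 and Srsf11 were rhythmic in NRF with peaks from ZT19 to ZT21.3 and amplitudes from 0.0752 to 0.14 log2 units. Srsf1 encodes the splicing factor SF2, the founding SR protein, and Srsf7 the zinc-knuckle protein 9G8. Srsf3, Srsf4 and Srsf12 did not pass the test in NRF, with adjusted p of 1, 0.102 and 1. In DRF, Srsf2 and Srsf3 had unadjusted p of 0.00469 and 0.0082 and adjusted p of 0.27 and 0.39.

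Of the hnRNP genes, Hnrnpm (NCBI Gene 76936, chromosome 17), whose protein binds GU-rich RNA, had the largest NRF amplitude, 0.25 log2 units with a peak at ZT20.4 (adjusted p = 5.67e-07). Its NRF mice measured 78.2, 81.3, 84 and 82.8 CPM at ZT8 and 114, 116, 111 and 115 CPM at ZT20, a 1.4-fold difference of the means with no overlap. In DRF the lowest group was ZT0, with 82.8, 87, 82.2 and 91.6 CPM, and the highest was ZT16, with 113, 118, 120.3 and 116 CPM. At ZT16, replicate 3 was the highest of the 4 mice and replicate 4 lay between the other two, unlike in Tra2a, Tra2b, Srsf2 and Srsf10. DRF minus NRF was -0.27 (SE 0.0536, adjusted p = 0.0016) at ZT0, 0.18 (SE 0.0536, adjusted p = 0.0393) at ZT4 and 0.25 (SE 0.0536, adjusted p = 0.0136) at ZT12, a change of sign between ZT0 and ZT4. The rhythm difference was 0.24 log2 units, with the smallest adjusted p of the members, 7.02e-05.

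Hnrnpc (NCBI Gene 15381, chromosome 14), which packages nascent transcripts by binding uridine tracts, was the only member past the threshold in both regimens. In NRF, it was lowest at ZT12, with 213, 194, 217 and 200.0 CPM, and highest at ZT20, with 280.2, 294, 281 and 279 CPM. In DRF the group means stayed between 215 and 223 CPM from ZT0 to ZT12, and the 4 mice at ZT20 measured 270.0, 287, 262 and 262 CPM, with no overlap with any DRF mouse of ZT0 to ZT12. The cosine peaked at ZT22.9 in NRF (amplitude 0.20 log2 units, adjusted p = 3.19e-06) and at ZT19 in DRF (amplitude 0.14 log2 units). The rhythms differed by 0.18 log2 units (adjusted p = 0.00342). Hnrnpc was lower in DRF at ZT0 and ZT4, with DRF minus NRF of -0.32 (SE 0.0547, adjusted p = 0.000169) and -0.20 (SE 0.0547, adjusted p = 0.0308). The rhythm difference lost its call without replicate 1 of every group, at 0.15 log2 units.

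The promoter of Hnrnpc is shown because this gene alone passed the test in both regimens.
Hnrnpc chr14:52104022-52104271 (minus strand): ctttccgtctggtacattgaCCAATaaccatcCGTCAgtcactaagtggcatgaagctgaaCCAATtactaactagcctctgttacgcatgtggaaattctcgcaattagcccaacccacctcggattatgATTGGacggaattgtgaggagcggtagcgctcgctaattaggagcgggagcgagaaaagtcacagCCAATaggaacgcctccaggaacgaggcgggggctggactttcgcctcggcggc
It held 4 CCAAT boxes, the most of the windows printed here, and 1 TGACG core on the opposite strand.

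Hnrnpdl (NCBI Gene 50926, chromosome 5), the paralogue of Hnrnpd, had a daytime peak in NRF at ZT9.23 (amplitude 0.19 log2 units, adjusted p = 0.00032). Its NRF mice measured 244, 234, 272 and 247 CPM at ZT12 and 178, 189, 198 and 190.4 CPM at ZT20. In DRF its highest group was ZT0, with 259, 245, 251 and 238 CPM, above all 4 NRF mice at ZT0, which measured 192, 218, 203 and 196 CPM. The difference at ZT0 was 0.30 (SE 0.0767, adjusted p = 0.0156). At ZT16 the DRF mice measured 174, 177, 141 and 114 CPM, all below the NRF mice at 189.9, 211, 204 and 212 CPM. That difference was -0.45 (SE 0.0767, adjusted p = 0.000558), and -0.21 (SE 0.068, adjusted p = 0.196) without replicates 3 and 4. The rhythms differed by 0.27 log2 units (adjusted p = 0.00267).

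**Figure D3:**
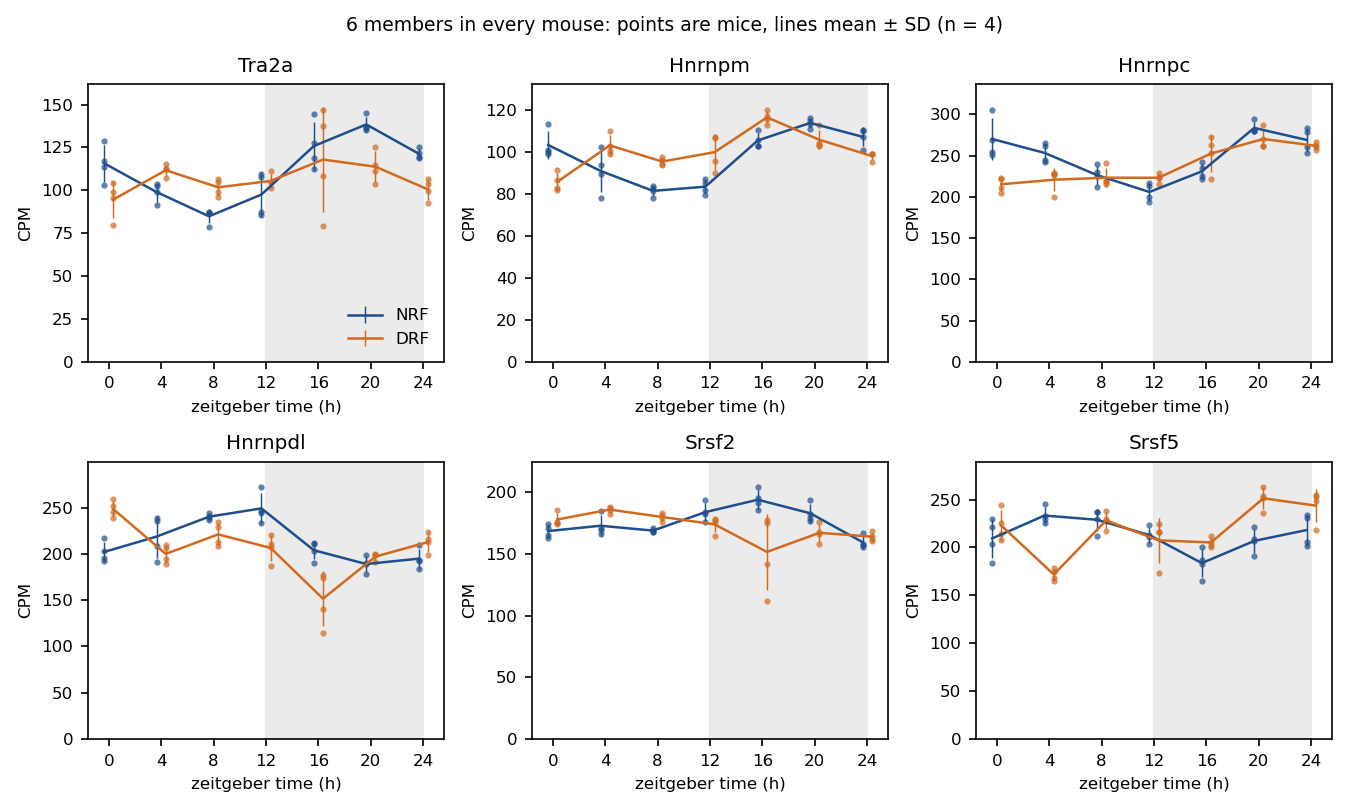
CPM of 6 members in every mouse against zeitgeber time (h), NRF in blue and DRF in orange; points are mice, lines join means, bars are SD (n = 4), axes start at 0 and the dark phase is shaded. The Srsf5 troughs lie at ZT16 in NRF and ZT4 in DRF, and the long DRF bars at ZT16 in Tra2a, Hnrnpdl and Srsf2 come from replicates 3 and 4.

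Hnrnpa1 and Hnrnpa0, members of the A family that binds exonic silencers, also peaked in the light phase in NRF, at ZT9.79 and ZT9.73. Hnrnpa1 measured 303, 293, 316 and 303 CPM at ZT12 and 280.2, 264, 271 and 266 CPM at ZT20 in NRF. At ZT0 its DRF mice measured 305, 308, 298 and 326 CPM, above all NRF mice (265 to 279.9 CPM), a difference of 0.18 (SE 0.0388, adjusted p = 0.00296). Hnrnpa2b1 and Hnrnpa3 of the same family peaked in the dark phase in NRF, at ZT21.1 and ZT19.4, so the A family did not share 1 phase. Hnrnph3 resembled Hnrnpm in direction: its NRF mice rose from 56.3, 60.7, 53.5 and 56.4 CPM at ZT8 to 71.4, 72.2, 66 and 69.6 CPM at ZT20, and DRF minus NRF at ZT0 was -0.21 (SE 0.0489, adjusted p = 0.00775). The remaining rhythmic hnRNP genes were Hnrnpf, Hnrnph1, Hnrnpll, Hnrnpu and Hnrnpul2, with amplitudes from 0.05 to 0.10 log2 units. Hnrnpab, Hnrnpd, Hnrnph2, Hnrnpk, Hnrnpl, Hnrnpr and Hnrnpul1 did not pass the test in NRF.

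Of the CLK kinases, Clk1 (NCBI Gene 12747, chromosome 1) was rhythmic in NRF, with an amplitude of 0.20 log2 units and a peak at ZT17.6 (adjusted p = 0.00139). Its NRF mice measured 81.6, 78.5, 85.1 and 90.1 CPM at ZT4 and 117, 133, 98.8 and 110.5 CPM at ZT16, with no overlap. In DRF, where it did not pass the test, its group means ran from 87.6 ± 24.6 CPM at ZT16 to 109 ± 9.84 CPM at ZT12 (SD, n = 4). The DRF mice at ZT16 measured 108, 106, 80.7 and 55.7 CPM, with replicates 3 and 4 lowest. The Clk1 rhythm difference of 0.26 log2 units missed the threshold (adjusted p = 0.0602), so a difference between regimens was not shown. Without the 2 libraries at ZT16 it was 0.18 log2 units (limma adjusted p = 0.152). The NRF call of Clk1 was lost without replicate 1 (adjusted p = 0.418) and when the trend of each library with GC content was removed (adjusted p = 0.0692).

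Clk2, Clk3 and Clk4 did not pass the rhythm test in NRF, with adjusted p of 0.531, 1 and 0.634. Clk2 was the lowest of the kinases, with group means from 20.7 ± 1.95 CPM in DRF at ZT24 to 24.2 ± 0.857 CPM in NRF at ZT20. Clk3 ran from 60.5 ± 1.08 CPM in DRF at ZT20 to 71.6 ± 1.26 CPM in DRF at ZT4. Clk4 ran from 36.9 ± 7.83 CPM in DRF at ZT16 to 48.6 ± 1.73 CPM in DRF at ZT12, and the ZT16 mice measured 42, 44.3, 34.4 and 27 CPM with replicates 3 and 4 lowest. None of the 4 kinases differed between regimens in rhythm or mean level by the limma tests, and the rhythm difference had an unadjusted p under 0.05 for Clk1 only.

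The mean level over the 7 time points differed between regimens for 1 member, Hnrnpul1 (NCBI Gene 232989, chromosome 7), higher in DRF, against 5.61% of all transcripts higher in DRF. The difference was 0.06 log2 units (adjusted p = 0.0201). The 28 NRF mice ran from 126 to 153 CPM and the 28 DRF mice from 135 to 168 CPM, so the regimens overlapped widely. The highest mouse was replicate 4 of DRF at ZT16, at 168 CPM, and without the 2 libraries of that group the difference was 0.04 log2 units and kept its call. The call was lost without replicate 1, 3 or 4 of every group and without ZT24.

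Time by time, 5 members differed at ZT0: Hnrnpa1 and Hnrnpdl were higher in DRF, against 2.38% of all transcripts, and Hnrnpc, Hnrnph3 and Hnrnpm were lower, against 2.17%. At ZT4 Hnrnpm was higher, against 2.75%, and Hnrnpc and Srsf5 were lower, against 1.14%. At ZT12 Hnrnpm and Srsf4 were higher, against 0.988%, and at ZT20 Srsf5 was higher, against 0.528%. At ZT8 and ZT24 no member passed the limma test.

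At ZT16, 16 members were lower in DRF, against 13.4% of all transcripts, and Hnrnph3 was higher, against 6.71%. The 16 were Clk1, Clk4, Hnrnpa3, Hnrnpd, Hnrnpdl, Hnrnph2, Hnrnpk, Hnrnpu, Srsf1, Srsf2, Srsf6, Srsf7, Srsf10, Srsf11, Srsf12 and Tra2b. None of these calls was kept without the 2 libraries that stand apart: with replicates 3 and 4 of DRF at ZT16 left out, which leaves 2 DRF mice and a weaker test, no member was called at ZT16 in either direction by limma, and 5 had an unadjusted p under 0.05. The estimates moved as well. The median difference over the 37 members was -0.19 log2 units with all mice and 0.04 without the 2 libraries, and the members below 0 fell from 29 to 15. Over all transcripts tested the median stayed at 0.00. The share of all transcripts called at ZT16 also fell, to 0.0995% higher and 0.0932% lower. Another fit, also added after the data were seen, kept all mice and removed the trends of each library with level, length and GC content. There, 6 members were called higher in DRF at ZT16 and 4 lower, against 5.59% and 5.31% of all transcripts.

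**Figure D4:**
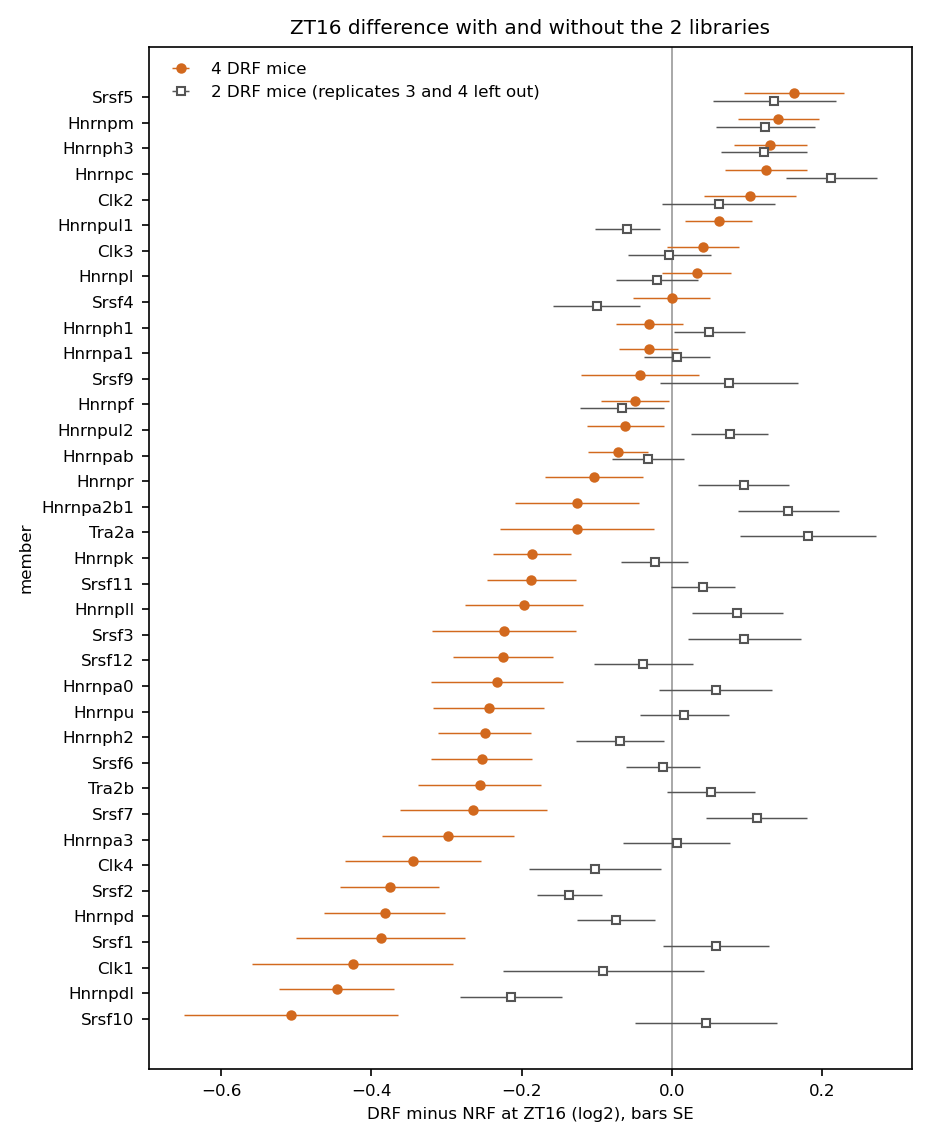
DRF minus NRF at ZT16 (log2, x axis) for each of the 37 members, with all 4 DRF mice (filled circles) and with the 2 libraries that stand apart left out (open squares); bars are SE from limma. Most circles lie below 0, down to -0.51 for Srsf10, and the squares lie on both sides of 0.

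Without the 2 libraries, other time points gained 11 calls, while the shares of all transcripts called there rose as well. At ZT0, Tra2a was then lower in DRF, with DRF minus NRF of -0.29 (SE 0.0738, adjusted p = 0.0107), and Hnrnpul1 higher, with 0.12 (SE 0.0354, adjusted p = 0.0241), and 3.63% of all transcripts were higher and 3.64% lower. Srsf11 was higher at ZT4, with 0.12 (SE 0.0345, adjusted p = 0.0312), against 4.32%, and Hnrnpm at ZT8, with 0.23 (SE 0.0538, adjusted p = 0.0381), against 0.323%. At ZT12, Hnrnpdl was lower, with -0.27 (SE 0.0555, adjusted p = 0.00633), as were Hnrnpa0, Hnrnpd and Srsf3, against 2.03%. At ZT20, Tra2a was lower, with -0.28 (SE 0.0738, adjusted p = 0.0287), as were Clk3, with -0.17 (SE 0.0455, adjusted p = 0.036), and Srsf2, against 1.32%. The ZT0, ZT4, ZT12 and ZT20 calls with all mice were kept.

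ZT0 and ZT24 are the same clock time in different mice, and in DRF they did not coincide for several members. In DRF, 4 members were higher in every ZT24 mouse than in every ZT0 mouse (Hnrnpc, Hnrnph2, Hnrnph3 and Hnrnpm), against 4.99% of all transcripts, and 5 were lower (Hnrnpa0, Hnrnpdl, Srsf2, Srsf12 and Tra2b), against 4.55%. Hnrnpc measured 222, 211, 205 and 223 CPM at ZT0 and 261, 267, 257 and 263 CPM at ZT24 in DRF, and 251 to 306 and 254 to 283 CPM in NRF. Hnrnpdl measured 259, 245, 251 and 238 CPM at ZT0 and 217, 223, 213 and 198 CPM at ZT24 in DRF. In NRF, 1 member was higher at ZT24 without overlap (Hnrnpul2, against 11.3% of all transcripts) and 1 was lower (Hnrnpab, against 10.4%). At ZT24 the members called at ZT0 did not pass the test of DRF against NRF.

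Per kilobase of exon, the most abundant member was Hnrnpa1 at 91.3 CPM per kb over the 56 mice, followed by Hnrnpa3 at 85.3, Hnrnpa2b1 at 76.6 and Hnrnpk at 71.8. The most abundant SR protein gene was Srsf2 at 58.7 CPM per kb, and the lowest of the family was Srsf9 at 8.23. The kinases were low, from 4.22 CPM per kb for Clk2, the lowest member, to 11.9 for Clk1. Over its whole span Clk2 overlaps another protein-coding gene of the table, Gm45927, and its reads were not whole numbers. Its level can therefore be understated, and the part of shared reads in its rank was not tested. The lengths used are the union of all annotated exons, except for Hnrnpm, Hnrnpul2 and Srsf7, whose lengths were found by search and are shorter than that union. Levels of genes with many long exon variants, such as Hnrnpr at 5.95 CPM per kb, can be understated by the union.

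In the promoter windows (250 bases before a RefSeq start, 46 windows for 34 of the 37 members, some of them overlapping windows of 1 gene), the E-box CACGTG was in 4 windows (8.7%), of Clk2, Hnrnpa3, Hnrnpd and Hnrnpf. It was in 6.02% of all 32851 RefSeq windows of this length and in 7.75% of the 16306 windows of transcripts past the filter. The CRE TGACGTCA was in 2 windows (4.3%), of Clk4 and Tra2a, against 1.55% of all windows and 2.29% of those of transcripts past the filter. Its core TGACG, which the full CRE contains, was in 25 windows (54.3%) against 17.8% of all windows and 23.7% of those of transcripts past the filter. The D-box TTATGTAA was in none, against 0.82% of all windows and 0.53% past the filter, the heat-shock element pair GAANNTTC in 5 (10.9%) against 6.69% and 5.15%, and CCAAT in 22 (47.8%) against 33.9% and 34.9%. Both strands were searched. Clk1, Hnrnpll and Hnrnpul2, all rhythmic in NRF, had no window and were not searched. These counts describe letters in a window and not binding.

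Some members lie near or across other genes. Hnrnpd and Hnrnpdl lie 54.4 kb apart on chromosome 5; Hnrnpd did not pass the test in NRF (adjusted p = 0.128). Hnrnpll and Srsf7 lie 137.8 kb apart on chromosome 17, with NRF peaks at ZT22.1 and ZT21.3. By RefSeq coordinates, Clk2, Hnrnpab, Hnrnpf, Hnrnph3, Hnrnpll and Hnrnpu overlap other protein-coding genes of the table, and these are the 6 members whose reads were not whole numbers, and reads of overlapping genes can be divided between them. Clk4, Hnrnpdl, Hnrnpk, Srsf2 and Srsf9 also overlap a protein-coding gene of the table, but had whole reads. Whether counting used strand is not given in the sources used here.

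For the lists that follow, the shares over all transcripts were 27.5% rhythmic in NRF, of which 59.3% peaked between ZT16 and ZT24, and 11.2% with a rhythm difference. The kinases outside the CLK family are the SRPK genes, which phosphorylate SR proteins in the cytoplasm; 2 of 3 were rhythmic in NRF. Srpk1 rose from 44.7 ± 1.66 CPM at ZT12 to 57.1 ± 3.07 CPM at ZT20 in NRF (SD, n = 4), and its rhythm differed between regimens (limma adjusted p = 1.02e-05). Srpk2 had an NRF amplitude of 0.08 log2 units. Of the SR-related proteins, 12 of 22 (54.5%) were rhythmic in NRF, 11 of them (91.7%) peaking between ZT16 and ZT24, and 6 (27.3%) differed in rhythm. Rsrp1 and Acin1 had the largest amplitudes, 0.18 and 0.17 log2 units, with peaks at ZT11.4 and ZT19.

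Of 12 hnRNP proteins that carry other symbols, 6 (50%) were rhythmic in NRF and 2 (16.7%) differed in rhythm. Syncrip had an NRF amplitude of 0.14 log2 units with a peak at ZT18.8. Of 37 core spliceosome genes, 10 (27%) were rhythmic in NRF, a share near the background, and 6 (16.2%) differed in rhythm; the largest amplitudes were those of Prpf3 (0.17 log2 units) and Dhx15 (0.16). Of 23 neuronal and other splicing regulators, 12 (52.2%) were rhythmic in NRF, all 12 with peaks between ZT16 and ZT24, and Khdrbs3 and Qk led with 0.18 and 0.18 log2 units. None of these 5 lists held a member rhythmic in DRF by the adjusted test, against 0.813% of all transcripts, a share at which few calls would arise in lists of this size.

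Genes known to respond to body temperature were also rhythmic. All 9 were called in NRF, 8 differed in rhythm between regimens, and Rbm3 was also rhythmic in DRF (adjusted p = 0.00103). The 7 heat-shock genes peaked between ZT18.9 and ZT21.4 in NRF, and Hspa1b had the largest amplitude, 1.03 log2 units, followed by Hspb1 with 0.65. The cold-inducible genes Cirbp and Rbm3 peaked at ZT8.94 and ZT12.2. The summed level of the list ran from 4366 CPM at ZT8 to 5850 CPM at ZT20 over the NRF group means, and from 4339 CPM at ZT0 to 5349 CPM at ZT16 in DRF. The part of temperature in the members' rhythms was not tested.

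Some cell type markers were rhythmic in NRF, in lists of 4 to 7 genes, beside 27.5% of all transcripts. Of 5 oligodendrocyte markers, 2 were rhythmic in NRF, Mag and Mog, with peaks at ZT9.83 and ZT10.1. In mean level, 2 of the oligodendrocyte markers were lower in DRF, against 4.88% of all transcripts. Their summed level ran from 5449 to 7419 CPM over the NRF group means and from 4878 to 6138 CPM in DRF. In NRF, 3 of 4 endothelial markers were rhythmic, led by Cldn5 and Flt1, with a summed level of 85.7 to 117 CPM over the group means, and 89.9 to 110 CPM in DRF. Among neuron, astrocyte and microglia markers, 1 of 5 in each list was rhythmic in NRF (Eno2, Gja1 and C1qa), and their summed levels ran from 3925 to 4268, 1327 to 1376 and 176 to 189 CPM over the NRF group means. In DRF these sums ran from 3734 to 4061, 1266 to 1421 and 169 to 196 CPM. None of the 4 choroid plexus, 7 anterior hypothalamus, 5 posterior hypothalamus or 4 telencephalon and thalamus markers was rhythmic in either regimen. Mean level was also lower in DRF for 1 marker each of the neuron, astrocyte, microglia, endothelial, and telencephalon and thalamus lists. It was higher for 1 astrocyte marker, against 5.61% of all transcripts. At ZT16, the time at which 16 members were called lower in DRF, the summed telencephalon and thalamus markers measured 86.6, 108, 149.6 and 144 CPM in NRF and 62.7, 47.4, 40.9 and 79.8 CPM in DRF, without overlap. Their median DRF minus NRF at ZT16 was -0.53 log2 units with all mice and -0.55 without the 2 libraries, beside -0.19 and 0.04 over the members. By limma, 2 of the 4 were called at ZT16 with all mice and 0 without the 2 libraries. The same held for 2 of 5 neuron markers, 2 of 5 astrocyte markers, and 1 marker each of the oligodendrocyte, microglia and endothelial lists. Over all transcripts, 6.71% were called higher and 13.4% lower with all mice. Summed neuron markers also did not overlap at ZT16, at 4005 to 4369 CPM in NRF and 3546 to 3847 CPM in DRF. The median difference was -0.24 for oligodendrocyte and 0.49 for posterior hypothalamus markers. Without the 2 libraries it was -0.40 and 0.51. Of 7 anterior hypothalamus markers, 1 was called in both fits. The part of these lists in the members' ZT16 calls was not tested. No marker was at 0, and the lowest were Emx1 at 0.118 CPM and Kcnj13 at 0.267 CPM. In these bulk samples, fewer cells of a type and less RNA per cell cannot be told apart, and the part of cell composition in the members' rhythms was not tested.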

How the data were processed

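PolyA RNA of 56 anterior hypothalami was sequenced on a DNA nanoball platform. The authors aligned reads with HISAT2 and Bowtie2 to GRCm38.p6 (mm10), estimated counts with RSEM and scaled libraries by TMM; the labels and the study give different read lengths. The deposited values are a score: log2(CPM + 1) divided by exon length and rescaled per sample. Low values step in whole reads, from which log2(CPM + 1) was recovered for 17378 of 17564 genes; 15309 gave whole reads, and lengths of 1034 were found by search, Hnrnpm, Hnrnpul2 and Srsf7 included. Gene IDs were named from RefSeq (108 had no symbol).

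Rhythms were tested per regimen on the deposited values by JTK_CYCLE and Lomb-Scargle (20 to 28 h), combined by Fisher's method, with Benjamini-Hochberg adjustment over 16245 transcripts. Rhythm difference (regimen by 24-h cosine, the length of the vector difference), mean level and DRF minus NRF at each time were tested in limma 3.58.1 (R 4.3.3) with a trended prior over 16087 transcripts, all 56 mice sharing 1 estimate of the spread. All tests were tried on simulated data. Fits without the 2 DRF libraries at ZT16 that stand apart were added after the data were seen. The threshold was an adjusted p of 0.05, and p-values measure spread between mice.

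Named members are the 6 largest NRF amplitudes among those called, all called in DRF, the 6 smallest p of rhythm difference, up to 4 largest called level differences, and the CLK and Tra2 genes; of each other list, counts and the 2 largest called amplitudes. Further members were named after their values were seen. A named result is not reported here. The members and lists were chosen with earlier results of these data known. Markers, alternatives and promoter windows (RefSeq, GRCm38.p6) are as given in the text.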

Additional observations from a re-analysis of the deposited data

Results flagged for a closer look

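Among 182 groups of 4 mice (13 named members in 14 groups), 14 held a mouse whose gap to the nearest other mouse took up more of the group's range than Dixon's 95% critical value for 4 samples; chance flags about 1 in 20 groups. The flagged mice, in CPM with the median of their group, were as follows. For Hnrnpc, the lowest mouse in DRF at ZT4 measured 200.1 (median 227), the highest in DRF at ZT8 measured 241 (median 219) and the highest in NRF at ZT20 measured 294 (median 281). For Hnrnpm, the highest mouse in DRF at ZT20 measured 113 (median 104), the lowest in DRF at ZT24 measured 95.6 (median 99.1) and the highest in NRF at ZT0 measured 114 (median 101). For Srsf2, the highest mouse in DRF at ZT0 measured 186 (median 176) and the lowest in DRF at ZT12 measured 165 (median 177). For Tra2a, the lowest mouse in NRF at ZT8 measured 78.8 (median 86.6) and the highest in NRF at ZT20 measured 145 (median 137). The lowest mouse of Clk1 in NRF at ZT8 measured 81.8 (median 88.6), that of Hnrnpdl in DRF at ZT20 measured 191 (median 199), that of Hnrnpul1 in DRF at ZT8 measured 141 (median 148) and that of Srsf5 in DRF at ZT24 measured 218 (median 251). None of these groups is DRF at ZT16, which holds the 2 libraries that stand apart. The lack of a flag there says little, because 2 mice that lie apart on the same side can hide each other in this test.

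For 8 named members the 24-h rhythm differed between DRF and NRF by the limma interaction test, against 11.2% of all transcripts. Of these, 6 were named for the smallest p of this same test, so the count among named members is no further support. The difference, in log2 units, was 0.31 for Tra2a, 0.29 for Srsf10, 0.27 for Hnrnpdl, 0.26 for Srsf5, 0.24 for Hnrnpm, 0.22 for Srsf2, 0.18 for Hnrnpc and 0.18 for Tra2b.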

How the results depend on the processing

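The 24 members rhythmic in NRF numbered 21 to 26 under the other settings, and 16 to 20 when 1 replicate number was left out of every group. The single member rhythmic in DRF became 0 with JTK_CYCLE alone, with the 24-h cosine in limma (with or without the replicate block) and without ZT24, 0 in every fit that left out a replicate, and 2 with the trends of each library with level, length and GC content removed, a setting added after the data were seen. It was Srsf3 in place of Hnrnpc without ZT16 and without the 2 DRF libraries at ZT16 that stand apart. Hnrnpc itself kept an adjusted p of 0.0517 to 1 where it lost the call. The 13 members that differed in rhythm numbered 10 to 16, and 6 to 11 without a replicate. The member that differed in mean level became 0 with library trends in level and length removed, 3 without ZT16, 3 without ZT24, and 0 to 7 without a replicate. The 28 calls at single time points numbered 22 to 32, and 4 to 30 without a replicate; 4 and 7 came from leaving out replicates 3 and 4, which hold the 2 DRF libraries at ZT16. The cause of the other changes was not tested.

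Replicate numbers did not pair the mice: the median correlation of deviations between same-numbered mice was 0.042 in NRF and 0.029 in DRF, and 29 and 26 of 84 pairs exceeded 0.1. With the replicate block, 26 members were rhythmic in NRF by the cosine fit, 13 differed in rhythm, 1 in level and 28 calls were made at single time points. Of the single-gene results of the 13 named members, 645 alternatives kept their side of the threshold, 32 lost a call and 12 gained one, and no called value changed sign. With 4 mice per group, small rhythms can be missed.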
